A study of Mus musculus with 6 samples.

Results

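The transforming growth factor beta (TGF-beta) and bone morphogenetic protein (BMP) genes of the mouse aortic valve were compared between postnatal day 2 (PND2) and 4 months of age. A list of 57 genes was taken by gene symbol from the 46983 genes of the deposited gene table, and all 57 had a row. The list holds secreted ligands, the proteins that store or block them, receptors, Smad proteins and target genes. Both ages were wild type C57BL/6J mice with no treatment, and each age had 3 libraries of total RNA from whole aortic valves. Each library pooled the valves of 5 to 6 mice, so a value is an average over mice and over all cell types left in the dissected tissue. The pools were labelled as biological replicates.

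TGF-beta family ligands are secreted as dimers and bind a complex of type I and type II receptor kinases at the cell surface. The type I receptor then phosphorylates receptor Smads, which join Smad4 and enter the nucleus. TGF-beta and activin receptors act mainly on Smad2 and Smad3, and BMP receptors on Smad1, Smad5 and Smad9. TGF-beta is stored in the matrix in a latent complex held by latent TGF-beta binding proteins (the Ltbp genes), while BMPs are held off their receptors by antagonists such as noggin and chordin. In the embryo this pathway drives the transition of endothelial cells to mesenchyme in the heart cushions from which the valves form.

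Values are RPKM, reads scaled to the exon length of the gene and to the library total. Library totals, derived from the RPKM values themselves, ran from 23810507 to 38994657, and 1 read on 1 kb of exon was worth 0.0256 to 0.0420 RPKM. The ages were compared with limma on log2(RPKM + 0.1) for the 25903 genes that reached 0.1 RPKM in 3 libraries or more. A gene is said to have risen or fallen where its Benjamini-Hochberg adjusted p over all genes tested was under 0.05. Fold changes on this scale understate those of low genes, and each mean is followed by ± SD (n = 3 libraries). Libraries at 4 months held less RNA of endothelial and dividing cell markers and more of smooth muscle, macrophage and adipocyte markers. Of 11 endothelial markers 9 fell, with a summed RPKM of 579 to 822 at PND2 and 333 to 358 at 4 months. All 10 mitotic markers fell, from a sum of 53.1 to 98.1 to one of 8.04 to 8.98. Of 12 cardiomyocyte markers 5 fell, and their sum was 19637 to 22379 at PND2 and 7807 to 12434 at 4 months, so heart muscle RNA was present at both ages. Of 8 smooth muscle markers 7 rose, as did 7 of 9 macrophage, 4 of 7 Schwann cell and 9 of 10 adipocyte markers, and 0 of 7 erythroid markers passed. The adipocyte genes Cidec, Lep and Retn had 0 reads in all PND2 libraries, and Plin1 and Cfd were under 0.1 RPKM in each. These genes passed the filter through the 4 month libraries alone. They could be called in 1 direction only, so their calls are a description. Of 10 valve interstitial markers 3 rose and 4 fell, and none was at 0. In pooled tissue, fewer cells of a type and less RNA per cell cannot be told apart, and the part of these marker changes in the results that follow was not tested.

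Of the 57 genes, 55 passed the filter and 26 differed between the ages, with 13 higher and 13 lower at 4 months. That is 47.3% of those tested, against 35.8% of all genes tested, and 23.6% in each direction against 14.7% higher and 21.1% lower over all genes. With a fold change over 2 as well, 6 rose and 5 fell, against 8.72% and 8.47% of all genes, or 17.2% in either direction. Over all genes 3810 were called higher and 5463 lower, and with each library scaled to its median 4601 and 4129, where the members stood at 16 higher and 13 lower. The highest library of one age lay below the lowest of the other for 30 of the 57 genes, and for 50% of all genes tested. The median log2 fold change was 0.03 for the tested members and -0.14 for all genes, and the median absolute change was 0.55 and 0.46. The 6 genes that rose over 2-fold were Bmp3, Gdf10, Bmpr1b, Tgfbr3, Chrd and Chrdl1, and the 5 that fell over 2-fold were Bmp4, Bmp6, Bmp7, Gdf6 and Fstl1. In the plot of fold changes by role, none was called among the activin chains, Smad4, the inhibitory Smads, the Smurf genes and the Id genes. These roles hold 1 to 4 genes each, too few to set against the 35.8% called over all genes.

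**Figure D1:**
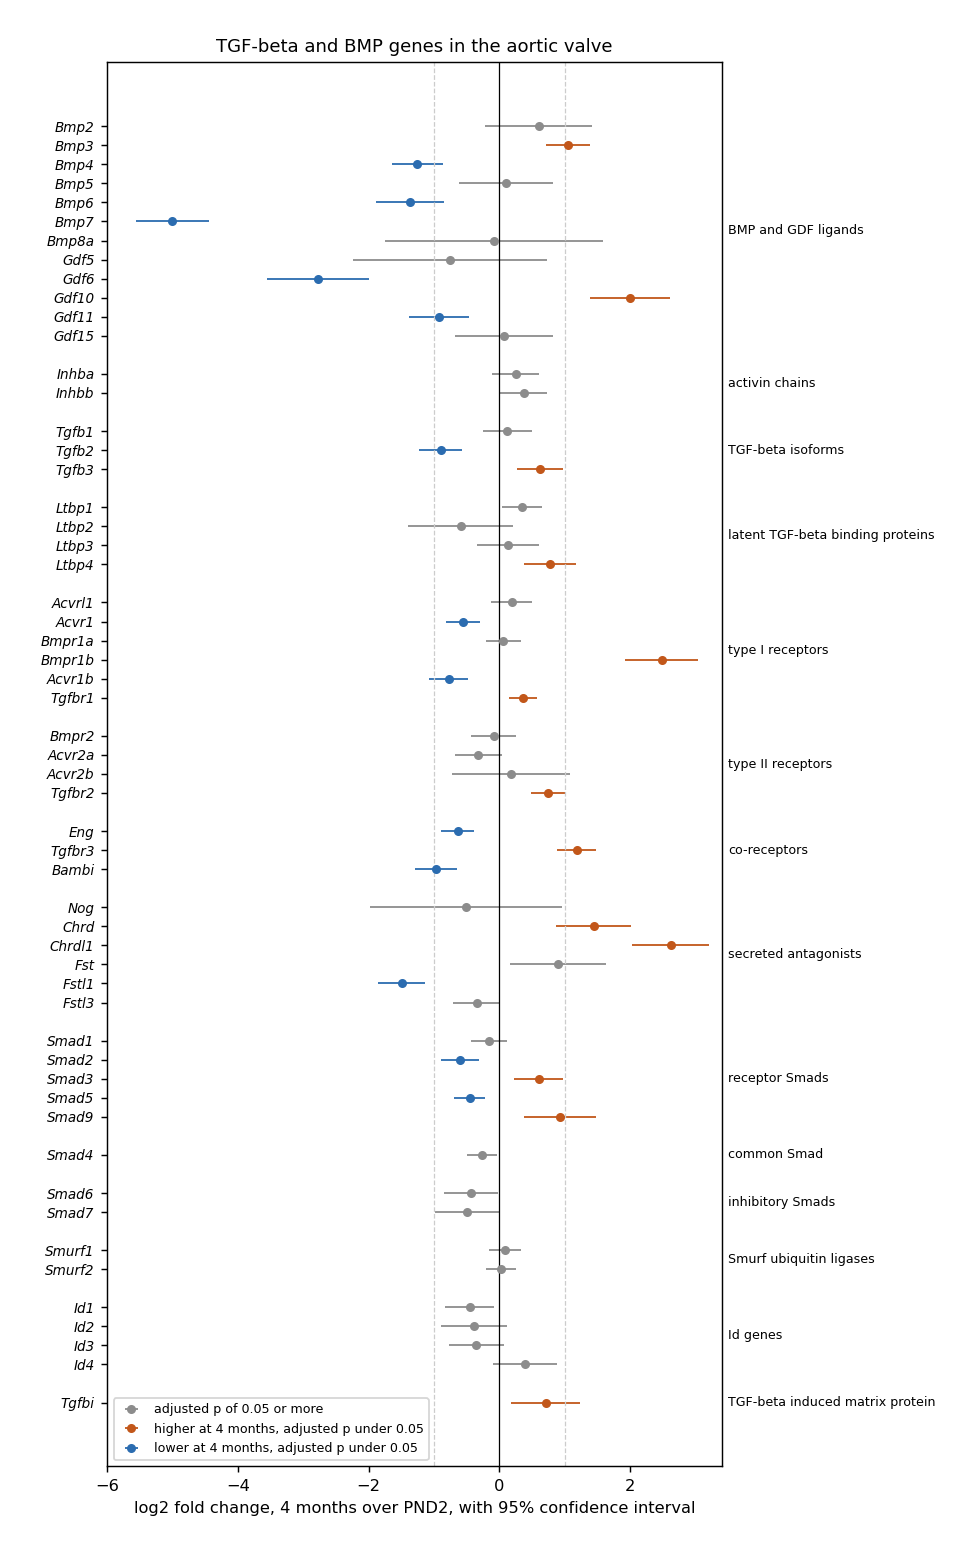
Log2 fold change (4 months over PND2, x axis) of the 55 tested genes, grouped by role, with limma's 95% confidence interval as bars and dashed lines at a fold of 2. Bmp7 lies farthest left at -5.00 and Chrdl1 farthest right at 2.62, and blue and orange points mark the 13 genes that fell and the 13 that rose.

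Among the 13 BMP and GDF ligands, 5 fell and 2 rose, and the ligand with the highest RPKM was a different one at each age. Bmp7, a BMP of many developing organs (ENSMUSG00000008999, mm10 chromosome 2, 172868012 to 172940321), had 9.22, 12.3 and 14.8 RPKM at PND2 and 0.280, 0.251 and 0.292 at 4 months. The ages were far apart, with 1445 to 1741 reads per library at PND2 and 24 to 42 at 4 months. Its mean was 44.2-fold lower at 4 months, a log2 fold change of -5.00 (SE 0.24, limma adjusted p = 3.2e-05). Gdf6, a ligand of joint and skeletal patterning (chromosome 4, 9844372 to 9862345), had 7.03, 16.0 and 12.6 RPKM at PND2 and 2.02, 1.55 and 1.20 at 4 months. It fell by 2.77 on the log2 scale (SE 0.33, limma adjusted p = 0.0010), and the lowest PND2 library still lay above all 4 month libraries.

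Bmp4 and Bmp6, which were the most abundant BMP ligands at PND2, fell by smaller factors. Bmp4, a ligand that acts in outflow tract and cushion formation (chromosome 14, 46383520 to 46390669), had 77.3, 72.9 and 69.9 RPKM at PND2 and 39.9, 25.4 and 28.4 at 4 months. The log2 fold change was -1.25 (SE 0.17, limma adjusted p = 0.0015) with no overlap of the ages. Bmp6, which in liver endothelium controls hepcidin (chromosome 13, 38345716 to 38499728), had 33.9, 45.5 and 57.4 RPKM against 20.3, 18.5 and 13.6, a log2 fold change of -1.37 (SE 0.22, limma adjusted p = 0.0034). Both calls were lost in the unequal-variance test that the study ran gene by gene, with adjusted p of 0.086 for Bmp4 and 0.061 for Bmp6. Gdf11, a close relative of myostatin, fell by 0.92 on the log2 scale, from 4.42 ± 0.32 to 2.31 ± 0.43 RPKM (limma adjusted p = 0.010).

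Gdf10 and Bmp3, a related pair known for weak or opposing action on BMP signals, were the 2 ligands of this family that rose. Gdf10 (ENSMUSG00000021943, chromosome 14, 33923587 to 33935280) had 22.4, 21.2 and 35.4 RPKM at PND2 and 138, 76.7 and 103 at 4 months. The lowest 4 month library was above the highest PND2 library, and the log2 fold change was 2.00 (SE 0.26, limma adjusted p = 0.0015). Bmp3 (chromosome 5, 98854415 to 98884396) had 4.64, 5.02 and 5.42 RPKM against 11.9, 9.37 and 10.4, a log2 fold change of 1.05 (SE 0.14, limma adjusted p = 0.0018). Bmp2, Bmp5 and Gdf15 had overlapping ages, with Bmp2 at 9.27 ± 3.01 and 14.4 ± 6.42 RPKM (limma adjusted p = 0.22).

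The low ligands were Bmp8a and Gdf5, both under 1 RPKM at both ages, and Bmp10. Bmp8a had 0.115 ± 0.117 and 0.129 ± 0.199 RPKM and Gdf5 0.462 ± 0.317 and 0.221 ± 0.165. Bmp10, a ligand of atrial heart muscle cells, had 0, 0.0073 and 0.152 RPKM at PND2 and 0, 3.10 and 0.0154 at 4 months, so 1 library held nearly all of its reads and it did not enter the test. That library, 4 month replicate 2, had the highest sum of cardiomyocyte markers of its age, 12434 against 7807 and 8247 RPKM. The sums at PND2 were higher, at 19637 to 22379 RPKM. Among the markers, Myl4, Myl7 and Nppa were instead highest in 4 month replicate 1, where Bmp10 was at 0, and the others in replicate 2. Replicate 2 also had the highest adipocyte sum of its age, 1967 against 544 and 642 RPKM, and the highest erythroid sum, 2158 against 750 and 1408. Its valve interstitial, smooth muscle, macrophage and Schwann cell sums were the lowest of its age. The source of the Bmp10 reads was not tested.

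**Figure D2:**
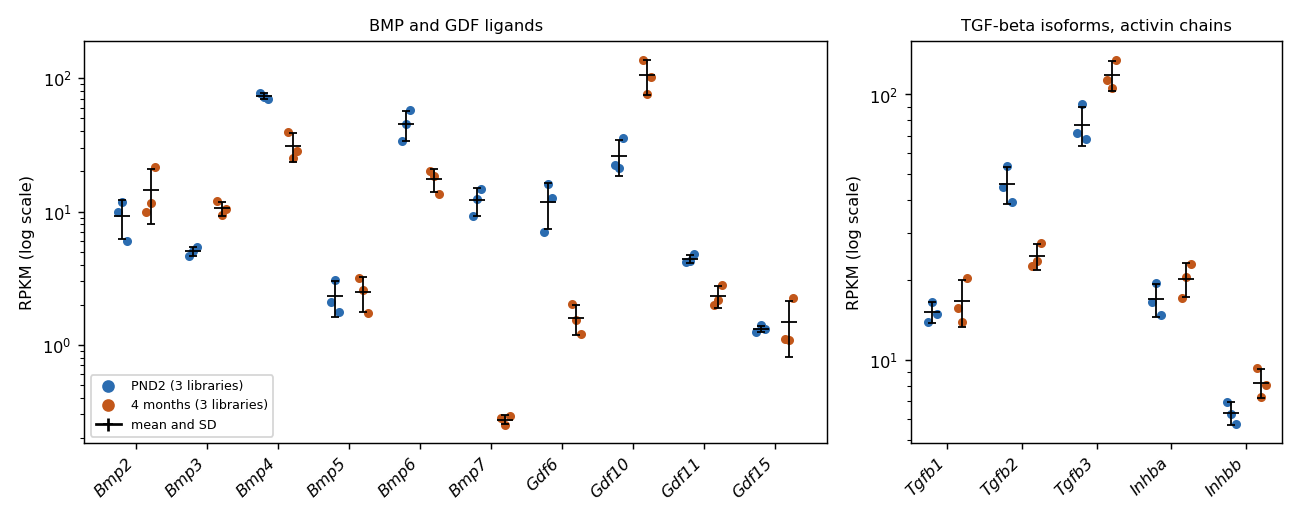
RPKM (log scale) of 10 BMP and GDF ligands (left) and of the TGF-beta isoforms and activin chains (right) in each PND2 (blue) and 4 month (orange) library, with mean and SD in black. Bmp7 is at 9.22 to 14.8 RPKM at PND2 and 0.251 to 0.292 at 4 months, while Gdf10 and Tgfb3 are higher in all 4 month libraries.

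The makeup of the ligand pool differed while its size overlapped between the ages. Summed over the 13 BMP and GDF genes, the level was 192 ± 18.9 RPKM at PND2 and 189 ± 38.3 at 4 months. Gdf10 made up 13.0, 10.9 and 16.9% of that sum at PND2 and 60.4, 50.3 and 55.3% at 4 months. Bmp4 made up 38.5 ± 5.88% and 16.4 ± 1.11%, and Bmp6 23.5 ± 3.84% and 9.43 ± 2.45%. Bmp7 made up 6.25 ± 0.85% and 0.148 ± 0.022%. A share within a library does not depend on the library total, but the shares of one family sum to 100% and are not independent of each other. Over 11 families, 32 of 53 shares did not overlap between the ages, where the RPKM of 50% of all genes tested did not. Shares were not computed for families outside the list, and the 2 shares of a 2-gene family mirror each other. Each share without overlap has the exact permutation p of 0.1, the smallest that 3 against 3 libraries allow.

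**Figure D3:**
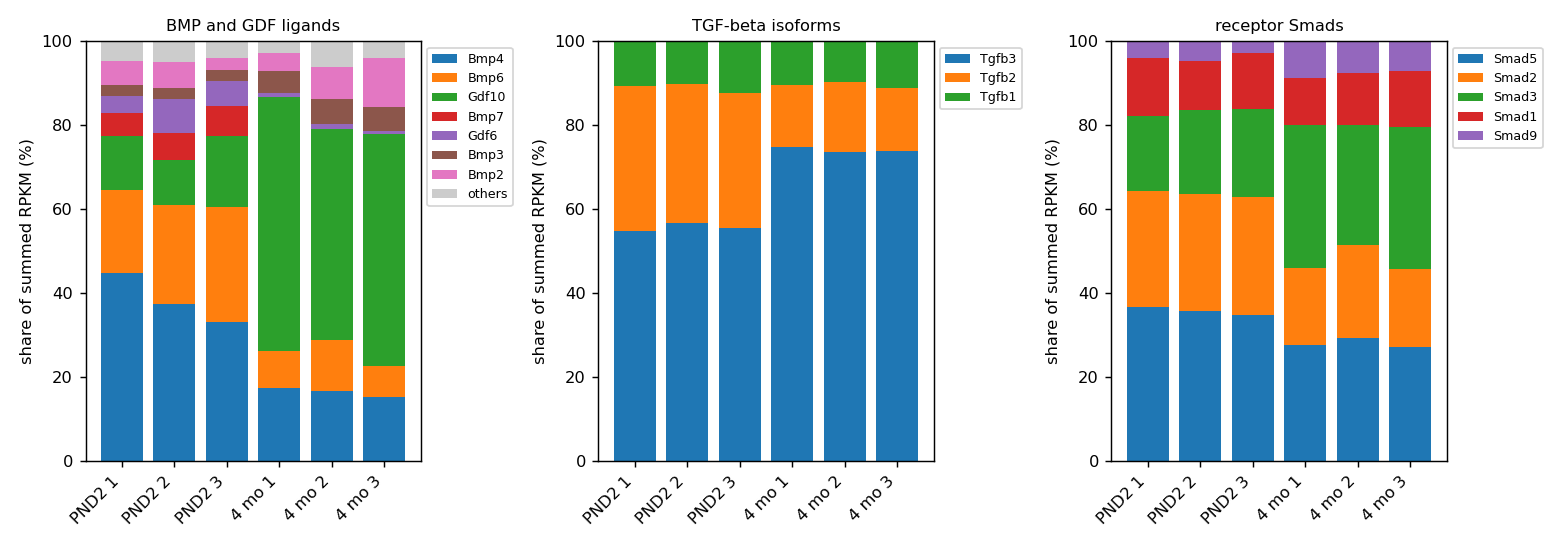
Share (%) of each family's summed RPKM taken by each gene in every library, for BMP and GDF ligands, TGF-beta isoforms and receptor Smads, with minor ligands pooled as others. Gdf10 takes 10.9 to 16.9% of the ligand sum at PND2 and 50.3 to 60.4% at 4 months, and Tgfb3 54.9 to 56.7% and 73.7 to 74.9% of the isoform sum.

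Of the 3 TGF-beta isoforms, Tgfb2 fell, Tgfb3 rose and Tgfb1 did not pass the test. Tgfb3 was the most abundant at both ages, with 71.4, 91.8 and 67.7 RPKM at PND2 and 114, 105 and 135 at 4 months. The log2 fold change was 0.62 (SE 0.15, limma adjusted p = 0.016), but the adjusted p was 0.058 without PND2 replicate 3 and 0.057 without 4 month replicate 3. Tgfb3 shares its locus with Gm37804, annotated on the other strand at a mean of 41.0 RPKM. Tgfb2, the isoform most tied to cushion formation, had 44.9, 53.7 and 39.5 RPKM against 22.5, 23.7 and 27.7, and fell by 0.89 on the log2 scale (SE 0.14, limma adjusted p = 0.0030). Tgfb1 had 15.1 ± 1.38 and 16.6 ± 3.30 RPKM (limma adjusted p = 0.59). As shares of the 3 isoforms, Tgfb3 was at 55.7 ± 0.90% and 74.1 ± 0.65% and Tgfb2 at 33.3 ± 1.08% and 15.5 ± 0.95%, while Tgfb1 overlapped at 10.2 to 12.2% and 9.74 to 11.1%.

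Neither activin chain passed the test. Inhba, the chain of activin A, had 16.5, 19.4 and 14.8 RPKM at PND2 and 17.1, 20.5 and 22.9 at 4 months (log2 fold change 0.25, SE 0.15, limma adjusted p = 0.24). Inhbb had 6.31 ± 0.62 and 8.21 ± 1.05 RPKM, with no overlap and a limma adjusted p of 0.098, which was 0.040 with each library scaled to its median.

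The latent TGF-beta binding proteins were among the most abundant genes of the list, and 1 of 4, Ltbp4, rose. Ltbp4, which also takes part in elastic fibre assembly (ENSMUSG00000040488, chromosome 7, 27305136 to 27337692), had 268, 382 and 340 RPKM at PND2 and 630, 477 and 589 at 4 months. The log2 fold change was 0.78 (SE 0.17, limma adjusted p = 0.011). A second annotation of Ltbp4 (ENSMUSG00000108715) lies within it and shares its reads, at 370 ± 72.4 and 608 ± 78.5 RPKM. Ltbp1 had 86.2 ± 13.8 and 109 ± 5.23 RPKM and missed the threshold (limma adjusted p = 0.073). Its adjusted p was 0.042 without PND2 replicate 2 and 0.17 without 4 month replicate 1. Ltbp2, which binds fibrillin microfibrils but not latent TGF-beta, had 106 ± 37.3 and 71.2 ± 31.6 RPKM. Ltbp3, part of which overlaps a gene on the other strand, had 184 ± 47.6 and 198 ± 30.0. Ltbp4 was 47.1 ± 2.36% of the 4 Ltbp genes at PND2 and 59.9 ± 2.75% at 4 months.

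At the level of exons, Ltbp1 differed between the ages in the use of exons at the 5′ end of its long form. The like exons of Ltbp4 held almost no reads at 4 months. Both genes have a long form, which begins at an upstream start and carries extra exons at its 5′ end, and a short form from a start inside the gene. Of 917 exons of 52 members tested with limma's diffSplice on recovered reads, 12 changed in use relative to the rest of their gene, against 0.492% of all 292864 exons tested. With a change in use over 2-fold these were 10 exons at 9 distinct intervals, against 0.307%, of which 7 exons belonged to Ltbp1, 2 to Ltbp4 and 1 to Fstl1. Among those of Ltbp1, 1 is a second identifier of the same exon and 1 lies wholly inside another, so their reads are not separate. The 2 of Ltbp4 passed the filter through the PND2 libraries alone and so could be called in 1 direction only, and for them the reads are given as a description, with no test. The other 2, in Acvrl1 and Bmpr2, changed less than 2-fold. The 12 became 5 without 4 month replicate 1, 7 without replicate 2 and 5 without replicate 3 of that age.

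The bases before each of the 4 starts are printed, 250 each and 170 for the Ltbp4 long form. The Ltbp exons named here lie between the upstream start and the short-form start of their gene. Use of the starts themselves was not measured. They are RefSeq's (GRCm38.p6), read 5′ to 3′ on the strand of the gene, with capitals for 2 motifs searched on both strands. One is the Smad box CAGACA, which the other strand shows as TGTCTG, and the other is the BMP-type GC box GGCGCC, which reads the same on both. These 2 motifs did not overlap here.
Ltbp1 long-form start (chr17:75005279-75005528, + strand): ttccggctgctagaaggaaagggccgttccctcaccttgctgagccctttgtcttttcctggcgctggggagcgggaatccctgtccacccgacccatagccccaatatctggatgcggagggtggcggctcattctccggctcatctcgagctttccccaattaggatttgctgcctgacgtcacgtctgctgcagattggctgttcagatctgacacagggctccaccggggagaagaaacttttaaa
Ltbp1 short-form start (chr17:75178531-75178780, + strand): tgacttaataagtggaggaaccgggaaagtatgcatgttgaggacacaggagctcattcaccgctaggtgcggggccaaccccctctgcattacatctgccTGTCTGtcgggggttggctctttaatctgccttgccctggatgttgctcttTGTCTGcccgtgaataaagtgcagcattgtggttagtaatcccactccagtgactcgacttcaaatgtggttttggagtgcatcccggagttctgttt
Ltbp4 long-form start (chr7:27337693-27337862, - strand): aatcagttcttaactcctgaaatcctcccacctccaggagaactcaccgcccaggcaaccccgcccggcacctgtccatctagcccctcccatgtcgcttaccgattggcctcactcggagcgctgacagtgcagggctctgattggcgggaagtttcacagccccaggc
Ltbp4 short-form start (chr7:27333664-27333913, - strand): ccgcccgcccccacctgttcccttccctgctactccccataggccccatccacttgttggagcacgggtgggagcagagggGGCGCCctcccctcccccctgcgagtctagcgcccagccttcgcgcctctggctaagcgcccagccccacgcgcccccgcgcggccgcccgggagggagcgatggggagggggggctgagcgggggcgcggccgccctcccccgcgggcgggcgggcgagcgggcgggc
For the Ltbp4 long form, 80 bases that the Ensembl annotation places inside its first exon are left out of the printed run but counted in what follows. The GC content of the 250 bases was 56.8% and 50.8% for the long and short starts of Ltbp1 and 64.4% and 79.2% for those of Ltbp4, where the median of all promoter windows was 52.4%. The Smad box was found 2 times before the Ltbp1 short-form start and the GC box 1 time before the Ltbp4 short-form start, and neither before the long-form starts. Of 32817 promoter windows of this length, 17.1% hold the Smad box and 9.59% the GC box. A match is a description of the letters and not of binding.

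The long form of Ltbp1 was the smaller part at both ages and lower at 4 months. Its 4 own exons (1327 bases, the first at chromosome 17, 75005568 to 75006361, holding the first coding bases) had 21.8, 36.2 and 35.2 RPKM at PND2 and 8.62, 11.3 and 6.72 at 4 months. Own here means absent from the short form. Noncoding transcripts at this start also hold exon 2 and part of exon 1, so their reads enter these values and the percentages below. The 28 exons it shares with the short form had 163 ± 32.3 and 209 ± 13.5 RPKM. As a percentage of the shared exons, the long form stood at 17.0, 18.8 and 20.7% at PND2 and at 3.88, 5.39 and 3.45% at 4 months, with no overlap (exact permutation p = 0.1). This percentage was computed after the exon results were seen. Relative to the gene, the use of exons 1 and 3 fell by 2.06 and 2.08 on the log2 scale (diffSplice adjusted p = 1.1e-08 and 7.1e-08), exon 4 also fell (diffSplice adjusted p = 1.0e-05), and these 3 passed in all 10 alternatives. The second exon, annotated under 2 identifiers, fell by 2.24 (adjusted p = 0.0033) and passed in 7 of 10. Both remaining calls were exons of a noncoding transcript at this start, 1 of them lying inside exon 1, and passed in 6 and 7 of 10.

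The long form of Ltbp4 was 2.17 ± 0.21% of the shared exons at PND2 and 0.011 ± 0.0052% at 4 months. Its 4 own exons held 168, 172 and 178 reads at PND2 and 1, 1 and 2 at 4 months. Per read of the library totals, with the libraries of each age summed, this was 118-fold higher at PND2, a ratio that rests on 4 reads at 4 months. The third exon (chromosome 7, 27335397 to 27335535, all coding) held 43, 69 and 60 reads at PND2 and 0 in each 4 month library, where 3 reads per library is taken as the limit, so its RPKM was at least 17.5-fold lower. The first exon (27337428 to 27337692), which another coding transcript also holds, had 6.85 ± 0.79 RPKM at PND2 and 0, 0 and 1 reads at 4 months. The shared exons had 432 ± 76.1 and 731 ± 99.2 RPKM, and as at PND2 the long form was a small part of the gene's reads.

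**Figure D4:**
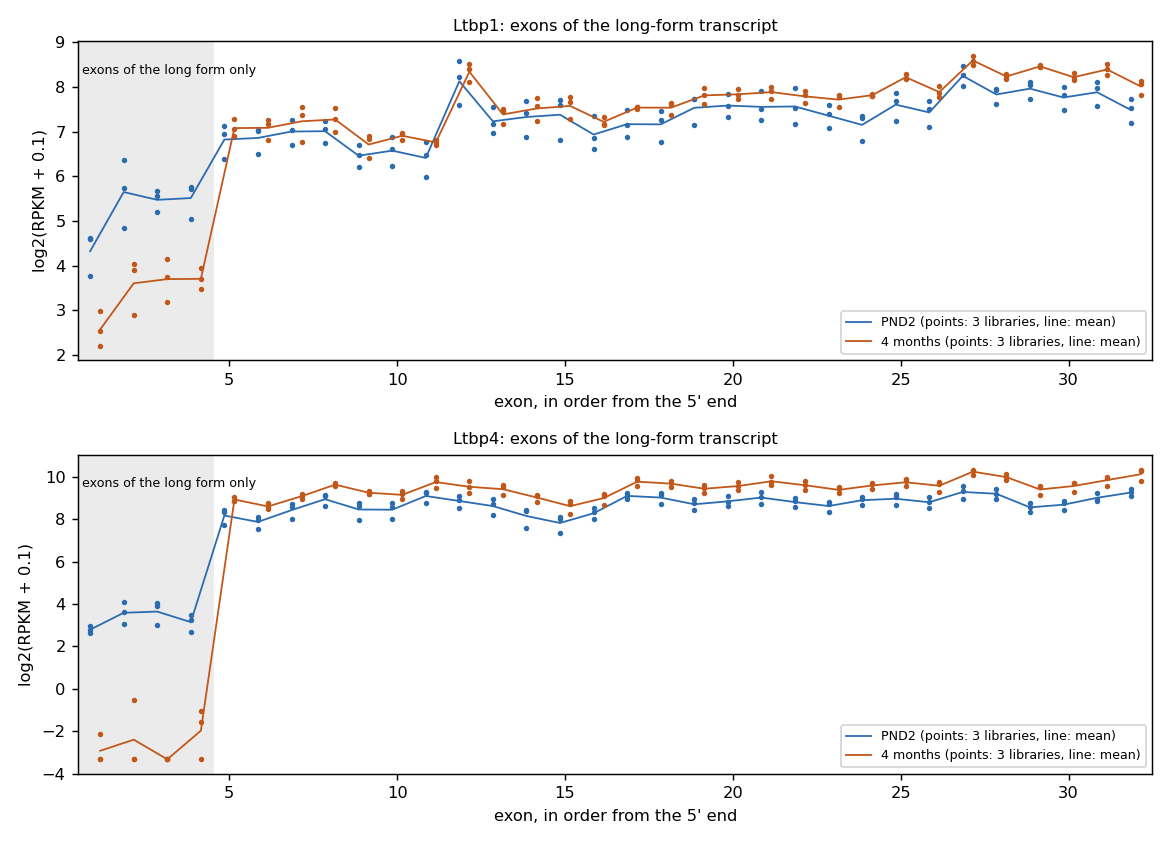
Level of each exon of the long-form transcripts of Ltbp1 (top) and Ltbp4 (bottom) on the log2(RPKM + 0.1) scale, in order from the 5′ end, with points for libraries and lines for the mean at PND2 (blue) and 4 months (orange). In the shaded first 4 exons, found in the long form and not in the short form, the 4 month values lie below PND2. From the fifth exon on the 4 month mean lies above it.

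Outside the Ltbp genes, the exon of Fstl1 that gained use belongs to a noncoding transcript at low level (2.25 ± 0.77 and 4.41 ± 1.55 RPKM). The last exon of Bmpr2, 8780 bases long and part coding, gained 0.97 on the log2 scale in use (diffSplice adjusted p = 1.3e-04) and lost the call in 1 of 10 alternatives. The last exon of Acvrl1 kept its call in 4 of 10 alternatives.

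Of the 6 type I receptors, 2 rose, 2 fell and 2 did not pass the test. Bmpr1b, a BMP receptor with a narrow range of tissues (ENSMUSG00000052430, chromosome 3, 141837136 to 142169425), had 0.959, 1.00 and 0.625 RPKM at PND2 and 5.77, 4.78 and 5.09 at 4 months. All 4 month libraries lay above all PND2 libraries, and the log2 fold change was 2.49 (SE 0.24, limma adjusted p = 4.0e-04). It remained a small part of the type I receptors, at 0.465 ± 0.116% and 2.77 ± 0.16% of their summed RPKM. Bmpr1a, the widely expressed BMP receptor, was the most abundant at 78.8, 71.2 and 78.4 RPKM against 87.5, 82.7 and 69.1, with overlapping ages (log2 fold change 0.06, SE 0.11, limma adjusted p = 0.70).

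Acvr1 and Acvr1b, receptors for BMPs and for activins, fell by 0.55 and 0.77 on the log2 scale (limma adjusted p = 0.0085 and 0.0035), to 18.7 ± 1.75 and 14.0 ± 1.59 RPKM. Tgfbr1, the TGF-beta type I receptor, was 32.0 ± 1.94 and 41.2 ± 1.96 RPKM (log2 fold change 0.37, limma adjusted p = 0.019). Its adjusted p was 0.063 without PND2 replicate 2, 0.075 without PND2 replicate 3 and 0.071 without 4 month replicate 3. Acvrl1, the BMP9 receptor of endothelium, had 25.3 ± 2.75 and 28.9 ± 3.56 RPKM (limma adjusted p = 0.31).

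Tgfbr2, the TGF-beta type II receptor, was the only type II receptor of 4 that passed the test. It had 65.4, 55.8 and 72.5 RPKM at PND2 and 106, 105 and 113 at 4 months, and its log2 fold change was 0.75 (SE 0.11, limma adjusted p = 0.0026) with a wide gap between the ages. It was 70.6 ± 2.41% of the type II receptors at PND2 and 81.8 ± 1.39% at 4 months. Bmpr2, Acvr2a and Acvr2b had means of 14.8, 10.3 and 1.75 RPKM at PND2 and 13.8, 8.23 and 1.99 at 4 months (limma adjusted p = 0.67, 0.15 and 0.75).

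All 3 co-receptors passed the test, with Tgfbr3 higher and Eng and Bambi lower. Tgfbr3, or betaglycan, which presents TGF-beta2 to Tgfbr2 (chromosome 5, 107106570 to 107289629), had 14.3, 12.4 and 16.0 RPKM at PND2 and 35.6, 31.4 and 29.8 at 4 months. Every 4 month library was above every PND2 library, with a log2 fold change of 1.18 (SE 0.13, limma adjusted p = 6.7e-04). Endoglin (Eng), an endothelial co-receptor, had 185, 196 and 233 RPKM against 129, 127 and 137 and fell by 0.64 on the log2 scale (SE 0.11, limma adjusted p = 0.0044). The endothelial markers fell as well, with 9 of 11 called and a median log2 fold change of -1.05, and their part in the Eng value was not tested. Eng overlaps Fpgs, at a mean of 14.6 RPKM, on the other strand. Bambi, a pseudoreceptor without a kinase that damps signalling, fell by 0.97 on the log2 scale (SE 0.14, limma adjusted p = 0.0021), from 36.8 ± 2.52 to 18.9 ± 3.06 RPKM.

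Secreted antagonists went in different directions. Fstl1, a secreted glycoprotein of the follistatin family that can bind BMP4 (ENSMUSG00000022816, chromosome 16, 37776873 to 37836514), had by far the highest RPKM of the list at PND2, with 1221, 1651 and 1395. At 4 months it had 556, 457 and 493 RPKM, a 2.83-fold lower mean and a log2 fold change of -1.50 (SE 0.15, limma adjusted p = 5.4e-04). Chrdl1, a chordin-like BMP antagonist (chromosome X, 143285674 to 143394262), had 1.53, 2.13 and 1.45 RPKM against 8.18, 10.9 and 14.2, and rose by 2.62 on the log2 scale (SE 0.25, limma adjusted p = 4.1e-04). This was the largest rise among the 55 genes tested, and no PND2 library came near the 4 month values.

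Chordin itself (Chrd, chromosome 16, 20733127 to 20742384), which binds BMP2, BMP4 and BMP7, had 1.33, 2.32 and 1.96 RPKM at PND2 and 5.60, 4.40 and 5.46 at 4 months. The log2 fold change was 1.44 (SE 0.25, limma adjusted p = 0.0041, against 0.069 in the study's per-gene test), and it overlaps Thpo, at a mean of 1.76 RPKM, on the other strand. Follistatin (Fst), an activin antagonist, had 7.69 ± 2.64 and 14.1 ± 4.03 RPKM without overlap and missed the threshold (limma adjusted p = 0.060). It passed at 0.032 with limma's voom on recovered reads. Fstl3 had 70.9 ± 12.6 and 55.6 ± 6.78 RPKM (limma adjusted p = 0.12) and overlaps Prss57, at a mean of 35.0 RPKM, on the other strand. Nog and Grem1 stayed under 1 RPKM at both ages, Nog at 0.594 ± 0.349 and 0.404 ± 0.344 and Grem1 at 0.0675 ± 0.0159 and 0.0286 ± 0.0201 RPKM, with Grem1 under the filter. Fstl1 held 94.5 ± 0.27% of the summed antagonist RPKM at PND2 and 85.3 ± 1.76% at 4 months, so the sums of 1505 ± 231 and 589 ± 55.9 RPKM mostly describe Fstl1.

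**Figure D5:**
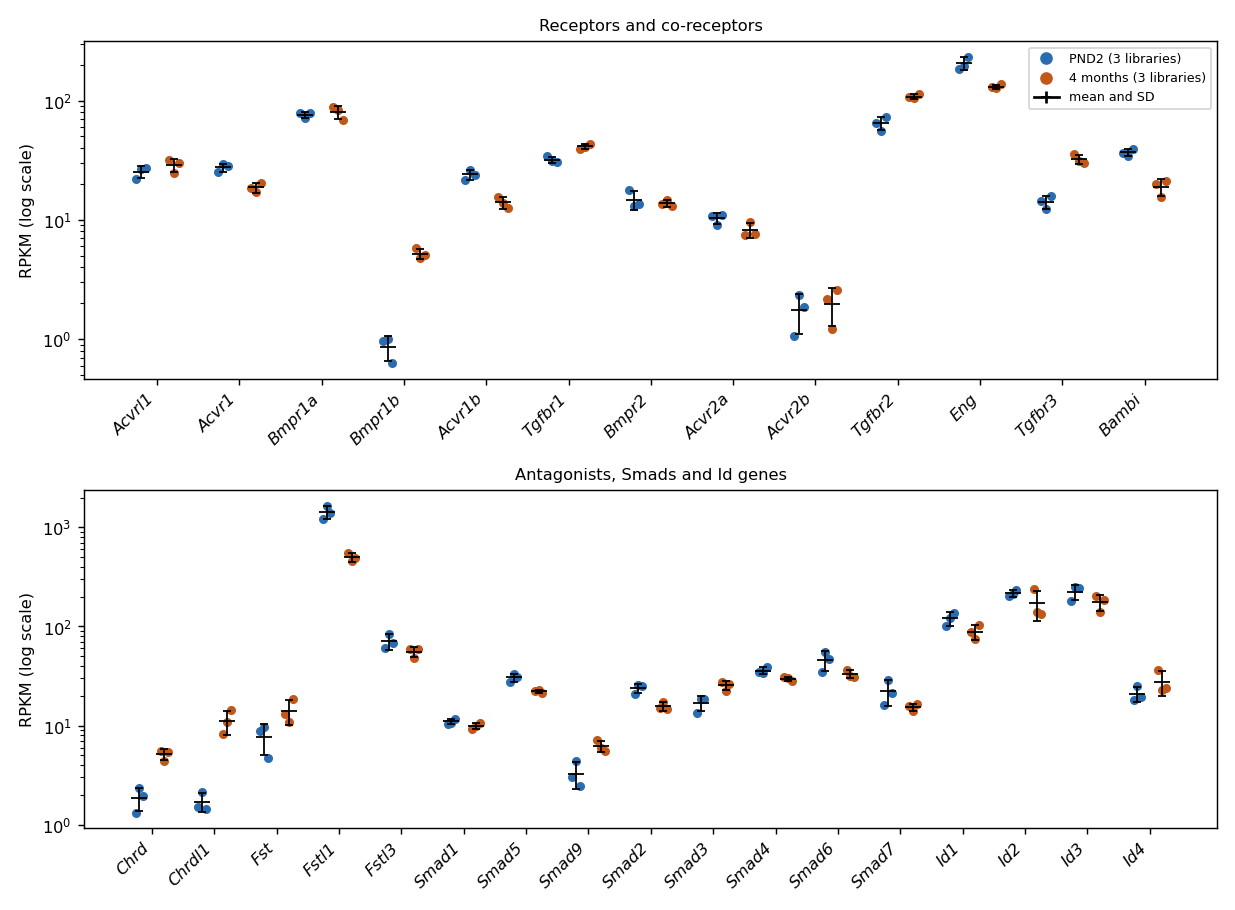
RPKM (log scale) of 13 receptors and co-receptors (top) and of 17 antagonists, Smad and Id genes (bottom) in each PND2 (blue) and 4 month (orange) library, with mean and SD in black. Bmpr1b lies at 0.625 to 1.00 RPKM at PND2 and 4.78 to 5.77 at 4 months, and the ages overlap for all 4 Id genes.

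Of the 5 receptor Smads, Smad3 and Smad9 rose and Smad2 and Smad5 fell, so that each branch held 1 gene that rose and 1 that fell. On the TGF-beta and activin branch, Smad2 had 21.0, 26.0 and 24.9 RPKM at PND2 and 14.9, 17.4 and 14.7 at 4 months (log2 fold change -0.61, SE 0.12, limma adjusted p = 0.0087). Smad3 had 13.4, 18.7 and 18.6 RPKM against 27.7, 22.4 and 26.5 (log2 fold change 0.60, SE 0.16, limma adjusted p = 0.024). Smad2 was higher than Smad3 in each PND2 library and lower in each 4 month library, and their RPKM are scaled per length. As shares of the receptor Smads, Smad2 was at 27.9 ± 0.14% and 19.7 ± 2.14% and Smad3 at 19.6 ± 1.69% and 32.1 ± 3.07%. The adjusted p of Smad3 was 0.071 without 4 month replicate 1 and 0.077 without replicate 3 of that age.

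On the BMP branch, Smad5 was the most abundant at PND2, with 27.7, 33.2 and 30.9 RPKM, and had 22.5, 23.0 and 21.4 at 4 months. The log2 fold change was -0.45 (SE 0.10, limma adjusted p = 0.013), with an adjusted p of 0.051 without 4 month replicate 3. Smad9 rose by 0.93 on the log2 scale, from 3.27 ± 0.98 to 6.20 ± 0.79 RPKM (limma adjusted p = 0.020), with an adjusted p of 0.057 without PND2 replicate 3 and 0.062 without 4 month replicate 1. Smad1 had 10.5 to 11.8 RPKM at PND2 and 9.24 to 10.5 at 4 months (limma adjusted p = 0.33).

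Smad4, the common partner, had 34.5, 33.9 and 39.1 RPKM at PND2 and 30.8, 30.3 and 28.0 at 4 months, and its log2 fold change of -0.27 missed the threshold (SE 0.10, limma adjusted p = 0.071). The inhibitory Smads, which are themselves targets of the pathway, also missed it. Smad6 had 34.6, 55.5 and 46.8 RPKM against 36.7, 32.0 and 30.7 (log2 fold change -0.44, SE 0.18, limma adjusted p = 0.092), and Smad7 had 22.3 ± 6.56 and 15.3 ± 1.34 (limma adjusted p = 0.11). PND2 replicate 1 was the lowest PND2 library for both, and without it their adjusted p were 0.012 and 0.019. Without PND2 replicate 2 they were 0.24 and 0.26. The ubiquitin ligases Smurf1 and Smurf2, which mark Smads and receptors for degradation, had 19.1 ± 1.48 and 20.1 ± 1.02 RPKM and 32.4 ± 2.87 and 33.0 ± 0.43 RPKM. Their 95% confidence intervals of the log2 fold change ran from -0.16 to 0.32 and from -0.20 to 0.25.

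None of the 4 Id genes, direct BMP targets that block basic helix-loop-helix factors, passed the test. Id3 had 181, 251 and 242 RPKM at PND2 and 202, 140 and 185 at 4 months (log2 fold change -0.35, SE 0.18, limma adjusted p = 0.17). Id2 had 216 ± 17.4 and 171 ± 58.3 RPKM, and its 4 month replicate 1, at 238, lay far above the other 2, at 140 and 135. The limma adjusted p of Id2 was 0.21, and it was 0.0077 without that library and 0.49 without 4 month replicate 3. Id1 had 121 ± 18.6 and 88.4 ± 14.7 RPKM (limma adjusted p = 0.065), and passed at 0.034 without PND2 replicate 1. Id4 had 20.9 ± 3.65 and 27.8 ± 7.72 RPKM. Tgfbi, a matrix protein named for its induction by TGF-beta, had 90.1, 166 and 104 RPKM against 204, 163 and 204 (log2 fold change 0.71, SE 0.23, limma adjusted p = 0.045). Its ages overlapped, and the adjusted p was 0.108, 0.127, 0.108, 0.054 and 0.126 without PND2 replicates 1 and 3 and 4 month replicates 1, 2 and 3.

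Around these genes, a further list of 92 pathway genes with a row was examined by role, of which 49 differed, 25 higher and 24 lower, and 7 did not pass the filter. Called genes made up 57.6% of the 85 that were tested, against 35.8% of all genes tested. Among the genes of latency and activation, 5 rose and 5 fell of 15. The fibrillins Fbn1 and Fbn2, whose microfibrils anchor the latent complexes, had log2 fold changes of -1.11 and -6.92, Fbn1 falling from 220 ± 35.1 to 101 ± 1.47 RPKM (limma adjusted p = 8.7e-04). The integrin chains Itgb5 and Itgb8, partners of alpha v in binding latent TGF-beta, rose by 1.26 and 1.27, Itgb5 from 121 ± 22.5 to 287 ± 34.4 RPKM (limma adjusted p = 0.0014).

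Among 15 further antagonists and modulators, 7 rose and 3 fell. Nbl1, a BMP antagonist of the DAN family, rose from 21.8 ± 3.18 to 78.7 ± 7.91 RPKM (log2 fold change 1.85, SE 0.13, limma adjusted p = 1.3e-04). Twsg1, a chordin partner, rose from 81.1 ± 3.45 to 168 ± 4.70 RPKM (log2 fold change 1.05, SE 0.08, limma adjusted p = 1.9e-04). Htra3, a secreted protease, rose by 1.71 on the log2 scale, and Bmper, a modulator of BMPs, fell by 1.19. Kcp and Fstl4, under 5 RPKM at both ages, fell as well, with log2 fold changes of -1.68 and -1.78. Chrd, Chrdl1, Twsg1 and Nbl1 were higher in all 4 month libraries, and Fstl1, Bmper, Kcp and Fstl4 were lower in all. The ages did not overlap for 50% of all genes tested.

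Of 8 other receptors and co-receptors, 4 rose and 1 fell, and the repulsive guidance molecules Rgma and Hfe2, which are BMP co-receptors, rose by 1.19 and 2.12 on the log2 scale. Of 14 other ligands, 1 rose and 2 fell, and Lefty1, a Nodal inhibitor, rose by 1.60. Among 20 intracellular regulators 2 rose and 8 fell, with Tgif2, a Smad corepressor, lower by 1.84 (log2 fold change -1.84, limma adjusted p = 3.2e-04) and Nedd4l, a ubiquitin ligase, at -1.13.

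Of 12 genes known to respond to TGF-beta, 4 rose and 3 fell. Klf10 fell from 43.3 ± 5.35 to 18.3 ± 1.90 RPKM (log2 fold change -1.24, SE 0.13, limma adjusted p = 5.3e-04). Pmepa1, which encodes an inhibitor of TGF-beta signalling and was chosen after its values were seen, rose from 45.4, 66.5 and 49.7 RPKM at PND2 to 98.5, 79.8 and 99.2 at 4 months (log2 fold change 0.79, SE 0.16, limma adjusted p = 0.0089). Of 12 genes known to respond to BMP, 3 rose and 2 fell. Tmem100 rose from 12.3 ± 1.88 to 30.1 ± 1.32 RPKM (log2 fold change 1.30, SE 0.13, limma adjusted p = 4.6e-04), Gata2 fell by 1.05, and Hamp, the hepcidin gene, was at 0, 0.160 and 0 RPKM at PND2 and 52.7, 19.2 and 13.7 at 4 months. Hamp has a close paralog, Hamp2, with which it can share reads. It passed the filter through its 4 month libraries and could be called in 1 direction only. The 2 response lists thus held genes of both directions, and their medians of the log2 fold change were 0.22 and 0.27, against -0.14 for all genes.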

How the data were processed

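Gene and exon RPKM values were deposited by the authors, who aligned quality-trimmed reads with TopHat 2.1.0 (genome mm10) and counted per Ensembl gene or exon by easyRNASeq in R 3.2.2. Values were not yet floored or filtered by the study's read minimum. Library totals were derived from the exon values, by taking the smallest positive product of RPKM and length in each library as 1 read. Multiplying RPKM by length and this total gave whole reads for 100% of values (tolerance 0.001). Reads over genes came to 2.31 to 2.36 times the totals. The reads were paired, and whether the totals count reads or pairs is not known. A read can count at more than 1 gene, as for the 2 annotations of Ltbp4, but the ratio does not show how often. A stranded kit was used, but the counting setting is not given in the sources used here, and 23 of the 57 genes overlap other annotated genes.

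The comparison of ages used moderated statistics from limma 3.58.1 (R 4.3.3), fitted to log2(RPKM + 0.1) with a mean-variance trend and 2-sided, and exon use was tested by diffSplice with voom weights on exons that reached 1 RPKM in 3 libraries. Called means an adjusted p under 0.05. Other steps ran in Python 3.11.15 with pandas 2.3.3, numpy 2.4.6, scipy 1.17.1 and matplotlib 3.10.9. On simulated data, limma found 53.1% of planted genes at a log2 change of 1 and 100% at 2, with 17 false calls among 26488 genes. The exon test found 79.4% and 100%, with 5 calls in unchanged genes among 292864 exons. Each simulation planted 200 changes and gave all genes or exons 1 common spread, unlike the real data, so these rates do not carry over to it. Promoter windows matched 41 of the 57 genes.

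Members and lists were chosen with earlier results of these data known. Values are given in full for members with an adjusted p under 0.05, a fold over 2 and at least 1 RPKM at the higher age, and for the most abundant of each family. Other pathway genes are named with that call, that fold and at least 5 RPKM. Exons are named with a use change over 2-fold, and the others named were chosen after their values were seen. Alternatives covered pseudocounts, filters, scaling, no trend, the unequal-variance test that the study ran gene by gene, voom on recovered reads, a replicate block and each library left out. Gdf1 was not analysed here, and 1 gene that the rule for other pathway genes names is counted in its list but not reported here.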

Additional observations from a re-analysis of the deposited data

How the results depend on the processing

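No called value changed direction under the alternatives run. Of the 26 calls, 10 held in all 16 alternatives and 20 in all but the study's per-gene test on floored values. That test called 11 members (6 higher, 5 lower), 3131 genes in all, 17 other pathway genes and 28 markers, where limma called 26, 9273, 49 and 58. The members it did not call were Bmp4, Bmp6, Gdf11, Tgfb2, Tgfb3, Ltbp4, Tgfbr2, Eng, Bambi, Chrd, Smad2, Smad3, Smad5, Smad9 and Tgfbi, with adjusted p from 0.052 (Tgfb2) to 0.22 (Tgfbi). Leaving out 1 library gave 21 to 28 members (9 to 13 higher and 12 to 16 lower) and 5 to 10 member exons of changed use, and unweighted log2(RPKM + 0.1) gave 20 such exons. Scaling each library to its median moved the median change over all genes from -0.14 to -0.02 (log2) and the calls over all genes from 3810 higher and 5463 lower to 4601 and 4129, and added Inhbb, Ltbp1 and Fst. The deviations of same-numbered libraries from their age mean correlated at 0.04, -0.06 and -0.16 across genes, and those of other pairs at -0.18 to 0.23. This cannot show whether libraries of the same number were handled together, since deviations within an age sum to 0. With the replicate number as a block, 23 members, 7167 genes, 41 other pathway genes, 54 markers and 11 member exons passed. Among the members, Tgfbr1, Smad3 and Tgfbi then missed the threshold. Shares were not tested with a block. For 35 shares the differences between same-numbered libraries all had 1 sign, and these include Bmp5, Gdf5 and Tgfb1, whose shares overlapped between the ages. The long-form percentage of Ltbp1, examined after the data were seen, was lower at 4 months by between 13.7 and 15.5 points when any library was left out. Exons of few reads and genes under 1 RPKM were limited by depth.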
